A study of Mus musculus with 56 samples.

Results

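The Nr4a genes (Nr4a1, Nr4a2 and Nr4a3), the Egr genes (Egr1, Egr2 and Egr3) and Cd69 are early reporters of signalling through the T cell receptor. Cd5 reports receptor strength and changes slowly. The RNA of these genes was followed in mouse regulatory T cells (Tregs) over tissue, diet, week of diet and culture. They were taken by symbol, and all 8 were found among the 55011 gene symbols of the count table. Libraries of 1000 cells each were made from C57BL/6 mice and sequenced in bulk, 56 libraries in 20 groups. In 51 of these the mice were vTreg53 Tg+, that is, they carried 1 transgenic T cell receptor, and only cells bearing that clonotype were sorted, so that all of these groups share the receptor. The mice started on a diet abbreviated HFD or on one abbreviated NCD at 12 weeks of age and were taken after 2, 4, 8 or 16 weeks, or at week 0. Tregs came from visceral adipose tissue (VAT, 25 libraries) and spleen (26 libraries), in groups of 3 except VAT HFD week 4, VAT NCD week 16 and spleen NCD week 4, which had 2. The remaining 5 libraries were VAT Tregs of mice, 8 to 10 weeks old, that carried Foxp3-GFP (KI/y) and PPARgamma-tdT (KI/KI) and had received 2 doses of IL-33 within a week. Cells positive for the tdT reporter were kept in IL-2 (2000 U/ml) plus IL-33 (10 ng/ml), and IFNα was added at 50 ng/ml in 2 libraries and 0 ng/ml in 3. After 3 days the Foxp3/GFP+ cells were sorted.

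Total counts ran from 3319873 to 6091439 in VAT, 3248686 to 5826965 in spleen and 5408696 to 8764390 in culture libraries, and a count of 3, taken as the limit of detection, was worth at most 0.904, 0.923 and 0.555 CPM, the count scaled by the library total. The tissue field of the labels reads visceral adipose tissue for the spleen libraries too, and the titles were used. Pparg, a nuclear receptor known for its role in VAT Tregs, was at 17.8 to 122 CPM in the 25 VAT libraries and 0 to 7.76 CPM in the 26 spleen libraries. In the 5 culture libraries Pparg was at 3.95 to 7.95 CPM, below every VAT library. Foxp3, which defines Tregs, was at 903 to 1145 CPM in VAT, 701 to 911 CPM in spleen and 538 to 1238 CPM in culture. The labels do not say whether replicates came from separate mice, so p-values measure the spread between these libraries, which may be technical. In bulk RNA a lower level in every cell and fewer cells with the RNA cannot be told apart.

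When a T cell receptor binds its ligand, kinases and calcium carry the signal to the nucleus within minutes, and a first wave of genes is transcribed without new protein synthesis. The NR4A proteins are orphan nuclear receptors of that wave, and in Tregs they are known to help keep Foxp3 expressed. The EGR proteins are zinc-finger transcription factors: EGR1 follows many stimuli besides the receptor, while EGR2 and EGR3 are known for restraining activated T cells. CD69 is a surface lectin that appears soon after stimulation and holds lymphocytes in tissue by counteracting a sphingosine phosphate receptor. CD5 is a surface inhibitor of receptor signalling whose level is set in the thymus by receptor strength and changes slowly. Many of these genes also answer to cell stress and to tissue digestion.

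The DNA before an annotated transcription start is shown for the 5 genes that had a window, because the Nr4a genes were the members that differed most between tissues. No window was at hand for Egr1, Egr3 and Cd69, so the windows cannot be compared over all members higher in VAT. The sequences are those of RefSeq on GRCm38.p6, 5′ to 3′ on the strand of the gene, without exonic bases. For Egr2, which had several windows, the first whose start is that of a GENCODE transcript linked to a RefSeq mRNA was taken. For Nr4a1, Nr4a3, Egr2 and Cd5 the start used lies inside the annotated gene, downstream of its outermost start. The exonic bases left out of the windows were 152 for Nr4a3 and 28 for Cd5. Capitals mark TGACG on either strand (CGTCA on the other), the core of the cyclic AMP response element bound by CREB and ATF proteins, and in Egr2 also a CArG box, the site of serum response factor.
Nr4a1 (chr15:101266596-101266845, + strand): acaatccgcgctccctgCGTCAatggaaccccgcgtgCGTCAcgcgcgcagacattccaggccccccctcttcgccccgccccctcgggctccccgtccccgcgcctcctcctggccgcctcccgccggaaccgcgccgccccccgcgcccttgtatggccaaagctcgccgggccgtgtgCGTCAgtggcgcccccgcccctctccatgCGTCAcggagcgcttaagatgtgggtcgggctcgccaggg
Nr4a2 (chr2:57124004-57124253, - strand): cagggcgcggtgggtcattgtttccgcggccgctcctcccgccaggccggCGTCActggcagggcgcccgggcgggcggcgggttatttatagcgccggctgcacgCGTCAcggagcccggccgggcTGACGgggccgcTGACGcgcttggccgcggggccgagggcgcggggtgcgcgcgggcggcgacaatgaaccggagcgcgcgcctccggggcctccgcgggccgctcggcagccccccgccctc
Nr4a3 (chr4:48045055-48045152, + strand): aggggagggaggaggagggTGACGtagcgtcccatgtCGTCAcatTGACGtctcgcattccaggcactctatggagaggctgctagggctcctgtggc
Egr2 (chr10:67537619-67537868, + strand): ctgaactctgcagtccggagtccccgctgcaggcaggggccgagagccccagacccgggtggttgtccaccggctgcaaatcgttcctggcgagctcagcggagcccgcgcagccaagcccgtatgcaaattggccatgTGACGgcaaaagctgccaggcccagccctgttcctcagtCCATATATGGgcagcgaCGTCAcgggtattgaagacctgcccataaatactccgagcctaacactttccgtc
Cd5 (chr19:10739003-10739224, - strand): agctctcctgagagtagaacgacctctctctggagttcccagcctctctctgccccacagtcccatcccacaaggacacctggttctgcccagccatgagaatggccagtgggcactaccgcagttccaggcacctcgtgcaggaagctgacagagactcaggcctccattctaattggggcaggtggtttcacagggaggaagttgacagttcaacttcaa

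Over the whole 250 bases before the start, TGACG was found 4 times in each of Nr4a1, Nr4a2 and Nr4a3, 2 times in Egr2 and 0 times in Cd5. Of the 250 bases for Nr4a3, 152 are exonic, and 3 of its 4 matches lie in the DNA printed. Of all 32851 promoter windows in the RefSeq table, 17.8% held it at least once on either strand. The share that held it 4 times was not counted, so the number of matches in the Nr4a windows has no such background. The CArG box of Egr2 is a motif held by 1.47% of windows. The EGR motif GCGNGGGCG was found 1 time each in Nr4a1 and Nr4a2 (4.70% of windows), and the full element TGACGTCA (1.55%), the NR4A motif AAAGGTCA (1.34%) and the AP-1 motif TGANTCA (6.75%) were found in none of the 5. TGACG lies within TGACGTCA, so those counts are not independent. These matches describe the letters of the windows and were not tested as sites.

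The genes lie on chromosomes 15 (Nr4a1, 101254269 to 101274795), 2 (Nr4a2, 57106830 to 57124003), 4 (Nr4a3, 48045153 to 48086447), 18 (Egr1, 34859823 to 34864984), 10 (Egr2, 67535475 to 67542188), 14 (Egr3, 70077203 to 70082614), 6 (Cd69, 129267325 to 129275436) and 19 (Cd5, 10717116 to 10739002) of mm10 in GENCODE M21, and none overlaps another annotated gene.

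Levels of different genes were compared per length, as CPM per kilobase of exon (RPKM). In the 14 VAT libraries without HFD the order was Nr4a1, with 772 ± 192 RPKM (SD, n = 14), then Cd69 with 279 ± 69.3, Cd5 with 102 ± 10.5, Egr1 with 59.4 ± 25.5, Nr4a2 with 51.8 ± 30.5, Nr4a3 with 33.4 ± 8.22, Egr2 with 3.74 ± 1.15 and Egr3 with 3.53 ± 0.730. The libraries' ranges overlapped between neighbours in this order except between Cd69 and Cd5 and between Nr4a3 and Egr2. These ranges are over libraries, and the order of the genes within each library was not looked up. In the 14 spleen libraries without HFD the order was another one, led by Cd5 with 117 ± 10.3 RPKM, then Cd69 with 43.9 ± 5.33, Nr4a1 with 21.1 ± 6.13, Egr2 with 14.4 ± 4.72, Egr1 with 10.1 ± 3.60, Egr3 with 1.96 ± 1.17, Nr4a3 with 0.814 ± 0.466 and Nr4a2 with 0.568 ± 0.611. There the ranges overlapped from Nr4a1 through Egr1 and from Egr3 through Nr4a2. In VAT the Nr4a genes stood above both Egr2 and Egr3, whereas in spleen Nr4a2 and Nr4a3 were the lowest of the 8 and Egr2 was the highest Egr gene.

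**Figure D1:**
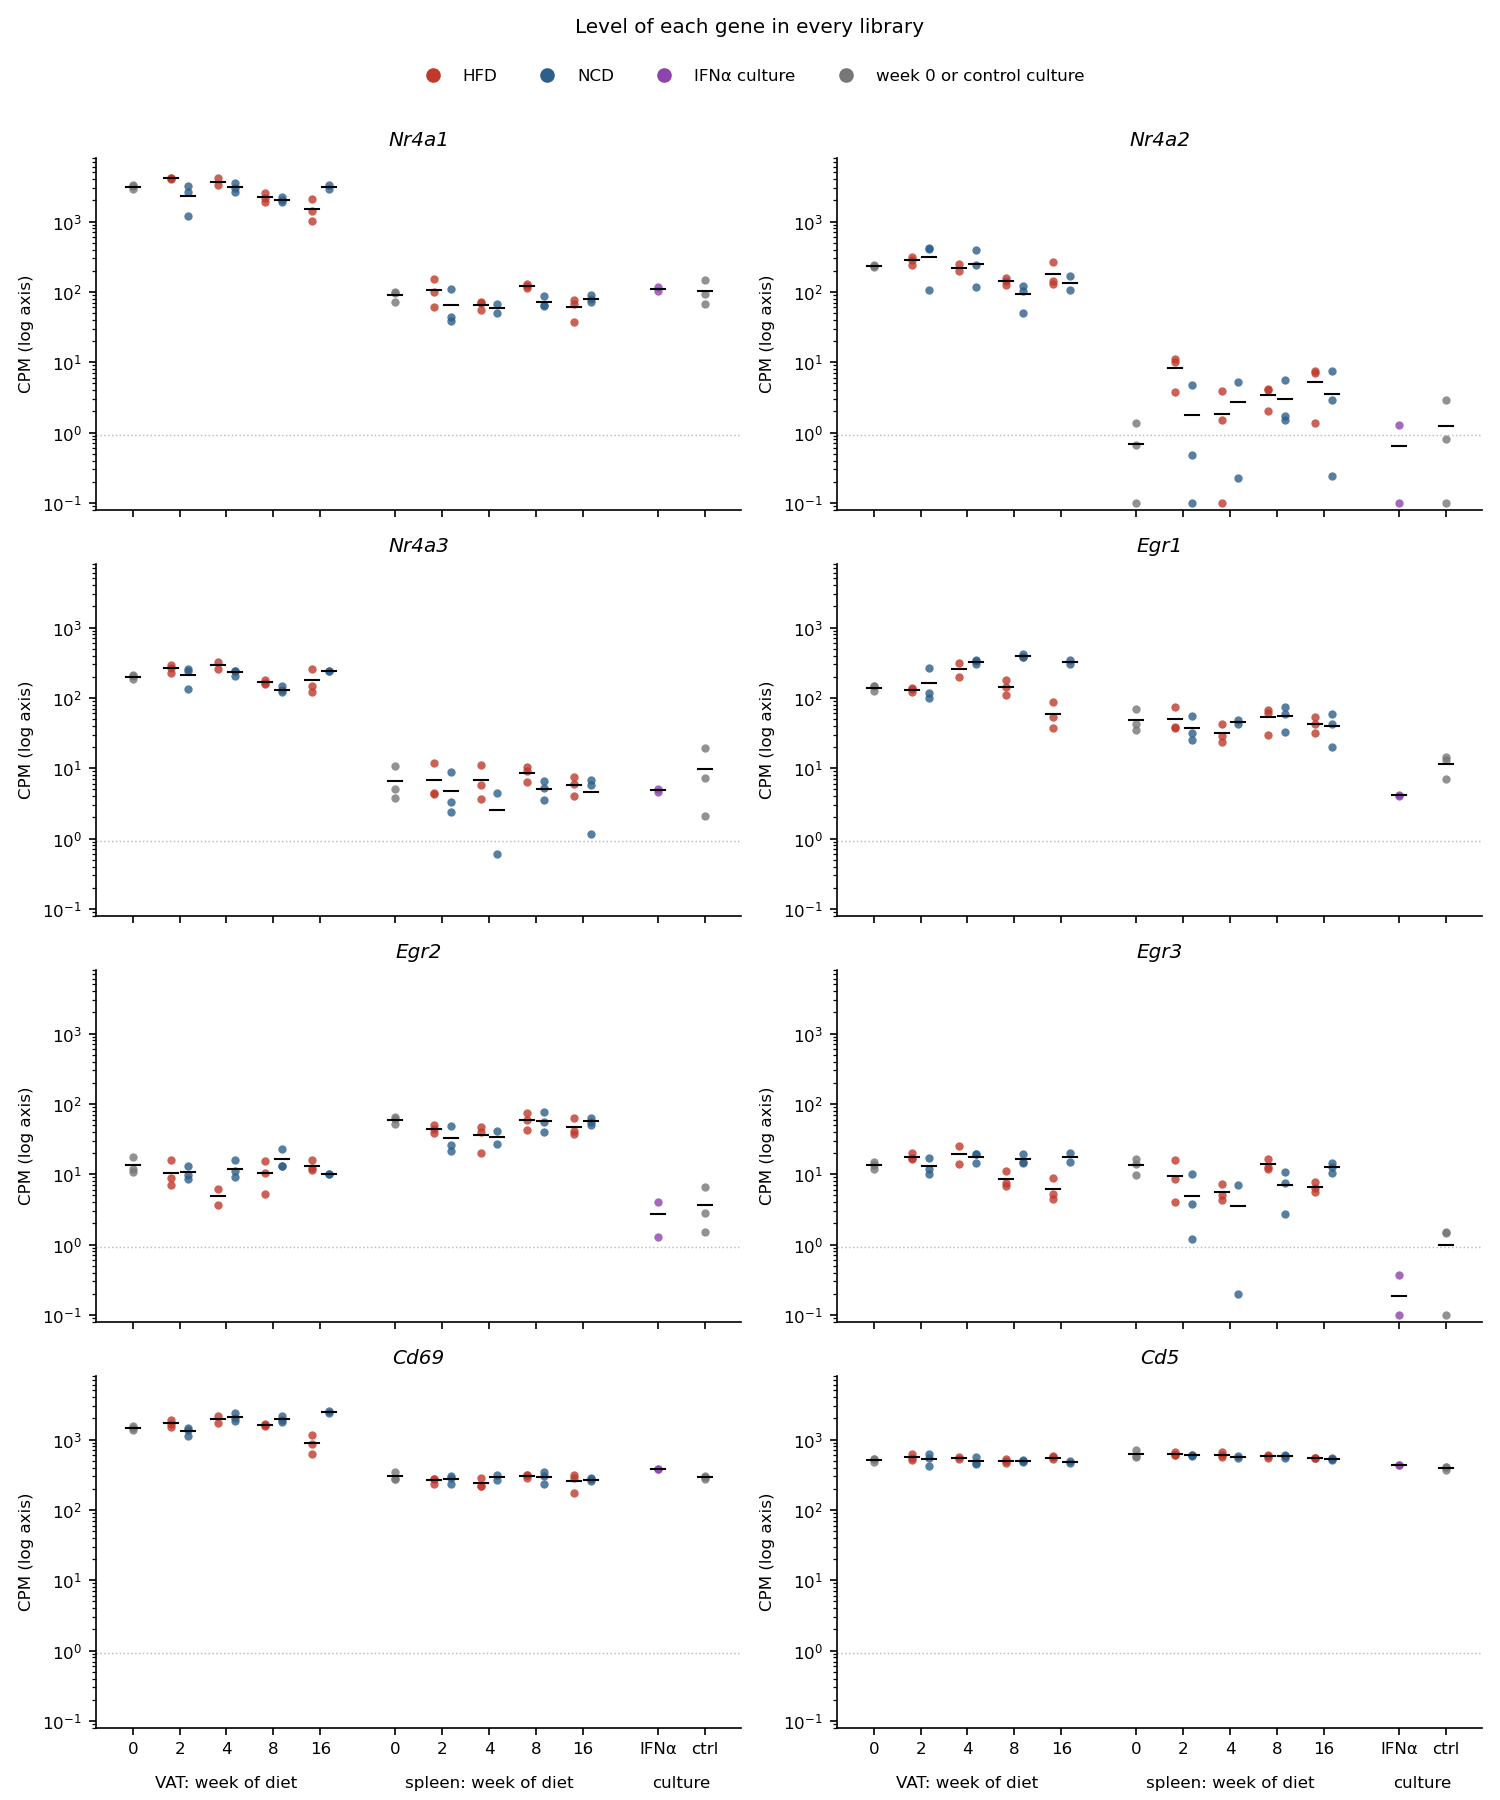
CPM (log axis) of the 8 genes in every library, by tissue and week of diet, with HFD left of NCD, and in the 2 kinds of culture. Points are libraries, bars are group means, the dotted line is the largest CPM worth of 3 counts (0.923), and a library at 0 is drawn at 0.1. The Nr4a panels show VAT libraries far above spleen and culture, Egr2 the opposite between VAT and spleen, and Cd5 nearly one level.

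VAT Tregs without HFD, against spleen Tregs without HFD, had higher RNA of 6 of the 8 genes and lower RNA of Egr2. The test was edgeR's quasi-likelihood test on week 0 and the 4 NCD weeks, each weighted equally, and a gene was called where its p, adjusted by Benjamini-Hochberg over all 15601 genes tested, was under 0.05. That comparison called 7 of the 8 genes, where 59.1% of all genes tested were called. The median log2 fold change of the 8 was 2.78 and that of all genes tested was -0.04.

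The Nr4a genes had the 3 highest log2 fold changes of the 8. Nr4a1 had 1187 CPM in the lowest, 2890 in the median and 3553 in the highest of the 14 VAT libraries, against 38.5, 71.7 and 111 CPM in the 14 spleen libraries. The lowest VAT library was far above the highest spleen library. Its log2 fold change was 5.43 ± 0.19 (SE, edgeR adjusted p = 4.83e-23). Nr4a2 had 50.7, 197 and 426 CPM in VAT, against 0, 1.45 and 7.52 CPM in spleen, where 2 of 14 libraries were at 0 and 6 held 3 counts or fewer. Its mean of 210 CPM in VAT was 91.2 times the 2.31 CPM in spleen, and the fitted log2 fold change of 6.65 ± 0.37 (edgeR adjusted p = 4.11e-17) rests on spleen counts close to the limit of detection. Nr4a3 had 120, 209 and 257 CPM in VAT, against 0.599, 4.76 and 10.8 CPM in spleen, a log2 fold change of 5.67 ± 0.22 (edgeR adjusted p = 5.22e-22). For each Nr4a gene every VAT library lay above every spleen library.

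The Egr genes split. Egr1 had 101, 303 and 419 CPM in VAT, against 20.0, 42.4 and 74.0 CPM in spleen, with no overlap, and its log2 fold change was 2.68 ± 0.19 (edgeR adjusted p = 1.96e-14). Egr2 went the other way, with 8.68, 11.5 and 23.1 CPM in VAT and 21.4, 51.5 and 75.7 CPM in spleen. Its highest VAT library was just above its lowest spleen library, and its log2 fold change was -1.69 ± 0.16 (edgeR adjusted p = 1.11e-12). Egr3 had 10.1, 14.8 and 20.2 CPM in VAT, against 0.200, 9.78 and 16.2 CPM in spleen, so the tissues overlapped, with a log2 fold change of 1.30 ± 0.24 (edgeR adjusted p = 8.19e-06).

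Of the surface proteins Cd69 had 1141, 1814 and 2583 CPM in VAT, against 234, 281 and 345 CPM in spleen. No library overlapped, and the log2 fold change was 2.88 ± 0.09 (edgeR adjusted p = 8.47e-27), the smallest p of the 8. Cd5 had 420, 501 and 620 CPM in VAT and 506, 578 and 714 CPM in spleen. These ranges overlap, and after TMM normalization its log2 fold change was 0.02 ± 0.04 (edgeR adjusted p = 0.668).

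With HFD, VAT against spleen called the same number, 7 of 8, where 47.4% of all genes were called. The log2 fold changes were 5.19 ± 0.19 for Nr4a1, 5.82 ± 0.36 for Nr4a2 and 5.16 ± 0.22 for Nr4a3. They were 1.80 ± 0.20 for Egr1, -2.11 ± 0.19 for Egr2 and 2.69 ± 0.09 for Cd69 (edgeR adjusted p at most 3.54e-09 for all 6). For Egr1 the tissues, apart without HFD, overlapped with it, since 2 of the 3 VAT HFD week 16 libraries, at 36.8 and 54.0 CPM, were below the highest spleen library at 74.5 CPM. Egr3 had a log2 fold change of 0.69 ± 0.26 (edgeR adjusted p = 0.0262), and its call was lost without VAT HFD week 4 replicate 3 (0.56, adjusted p = 0.107), VAT HFD week 16 replicate 2 (0.59, adjusted p = 0.0661) or spleen HFD week 2 replicate 1 (0.60, adjusted p = 0.0542). Cd5 stood at 0.09 ± 0.05 (edgeR adjusted p = 0.127).

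**Figure D2:**
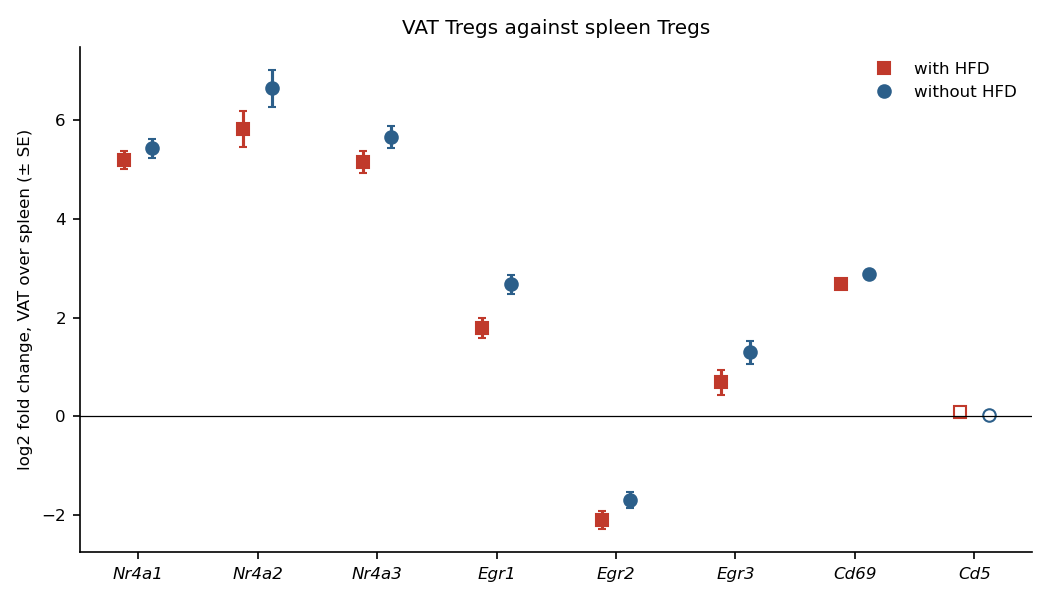
Log2 fold change of VAT over spleen (± SE) for each gene with HFD (red squares) and without HFD (blue circles), filled where called at an adjusted p under 0.05. The 3 Nr4a genes lie between 5.16 and 6.65, Egr2 below 0 in both, and Cd5 at 0.02 and 0.09.

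Other genes of the pathway also differed between tissues. Without HFD, 4 of 18 genes of the receptor complex and its proximal kinases were higher in VAT and 13 lower; among the lower were Cd3e (-0.92 ± 0.04, edgeR adjusted p = 1.01e-22), a receptor subunit, and Lck (-0.72 ± 0.04, adjusted p = 2.21e-21), the kinase that starts the cascade. Of 20 genes of negative feedback 8 were higher and 7 lower, with Dusp5, a phosphatase of ERK, at 3.27 ± 0.11 (edgeR adjusted p = 2.04e-28) and Ptpn6, the phosphatase SHP-1, at -1.11 ± 0.06 (adjusted p = 5.20e-22). Of 20 genes induced later by the receptor 15 were higher and 4 lower, with Ctla4 at 2.70 ± 0.06 (edgeR adjusted p = 2.21e-34) and Id3 at -4.32 ± 0.16 (adjusted p = 1.83e-23). These counts read against the 59.1% of all genes called.

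Genes that answer to stress and handling moved with the tissue as well. Of 22 other immediate early genes 19 were higher in VAT and 0 lower, by a median log2 fold change of 5.01, and their summed level was 23314 to 41353 CPM in VAT without HFD, against 1938 to 2586 CPM in spleen. Of 10 heat shock genes 9 were higher and 1 lower, with summed levels of 3647 to 6232 CPM in VAT and 2883 to 4616 CPM in spleen. Over all genes tested, 59.1% were called without HFD, 4533 higher in VAT and 4688 lower. The part of tissue digestion and handling in the tissue difference of the 8 genes was not tested. Markers of other cell types were present too, at sums that for some of the lists differed between tissues. Their sums in VAT and in spleen, both without HFD, were 98.2 to 252 and 48.3 to 103 CPM for 6 NK and CD8 cell markers, 31.6 to 114 and 204 to 401 CPM for 5 endothelial markers, and 2.31 to 10.1 and 6.34 to 113 CPM for 3 erythroid markers. They were 2.42 to 26.7 and 12.4 to 30.5 CPM for 6 B cell markers, 11.6 to 27.9 and 9.01 to 29.0 CPM for 6 dendritic cell markers, and 1.40 to 7.97 and 1.88 to 27.2 CPM for 8 macrophage markers. They were 0.235 to 6.99 and 0 to 1.80 CPM for 5 adipocyte markers, 0 to 4.00 and 0 to 6.21 CPM for 5 stromal markers, and at most 0.865 and 0.343 CPM for 4 granulocyte markers. In spleen Adgre1 and Mertk (macrophage), Ncr1 (NK cell) and S100a8 (granulocyte) were at 0 in all 14 libraries, as were S100a8, Hba-a1 and Hbb-bs in VAT. The sums came from other genes of the lists, which are not named here. The part of other cells in the tissue difference was not tested.

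In VAT, HFD against NCD called none of the 8 genes at weeks 2 and 4, Egr1 at week 8, and Egr1, Egr3, Cd69 and Nr4a1 at week 16, each lower with HFD. At week 2 edgeR called 0 of 8, with 2 at an unadjusted p under 0.05, and 0 by DESeq2 and 1 by limma voom; 0.0565% of all 14164 genes tested were called. Nr4a1 had 4138, 4173 and 4087 CPM with HFD, against 1187, 2644 and 3182 CPM with NCD, where replicate 1 is low. The log2 fold change of Nr4a1 was 0.93 ± 0.28 (edgeR adjusted p = 0.252, and 0.0498 by limma voom). Cd69 had 1904, 1526 and 1683 CPM with HFD, against 1357, 1141 and 1442 CPM with NCD, at 0.48 ± 0.16 (edgeR adjusted p = 0.290). At week 4 edgeR again called 0 of 8, with 1 at an unadjusted p under 0.05 and 0 by DESeq2 and by limma voom; 0.0212% of all genes were called. The lowest value was that of Egr2, with 3.61 and 6.16 CPM under HFD and 9.20, 15.8 and 11.1 CPM under NCD (log2 fold change -1.21 ± 0.45, edgeR adjusted p = 0.379). The highest was that of Nr4a3, at 0.41 ± 0.25 (edgeR adjusted p = 0.621).

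At week 8 Egr1 was lower with HFD, 1 of the 8 genes, where 1.33% of all genes were called. It had 110, 181 and 141 CPM with HFD, against 385, 387 and 419 CPM with NCD. The groups lay far apart, at a log2 fold change of -1.48 ± 0.32 (edgeR adjusted p = 0.0298). The call was lost in 5 of 6 fits that left out 1 library, with adjusted p of 0.0546 to 0.154 and log2 fold changes of -1.31 to -1.51. Egr3 had 11.1, 7.62 and 6.73 CPM with HFD, against 19.7, 14.4 and 15.1 CPM with NCD, and did not pass (-0.98 ± 0.30, edgeR adjusted p = 0.107, and 0.0480 by DESeq2). Egr2 (-0.71 ± 0.36), Cd69 (-0.31 ± 0.16) and Cd5 (-0.01 ± 0.11) were not called either. The Nr4a genes, also uncalled, went the other way, with Nr4a1 at 0.10 ± 0.28, Nr4a2 at 0.62 ± 0.48 and Nr4a3 at 0.32 ± 0.23.

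At week 16 the HFD libraries had lower Egr1, Egr3, Cd69 and Nr4a1 than NCD libraries, 4 of the 8 genes, all lower, where 9.24% of all genes were called. Egr1 had 36.8, 86.2 and 54.0 CPM with HFD, against 348 and 305 CPM with NCD. Every HFD library was far below both NCD libraries, and the log2 fold change of -2.58 ± 0.36 (edgeR adjusted p = 0.000140) was the lowest of the 8. Cd69 had 629, 1158 and 874 CPM with HFD, against 2583 and 2396 CPM with NCD, at -1.60 ± 0.18 (edgeR adjusted p = 4.21e-06). Both calls held in every fit that left out 1 library and under each other setting run.

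Egr3 had 4.42, 8.91 and 5.21 CPM with HFD, against 20.2 and 14.8 CPM with NCD, at -1.60 ± 0.33 (edgeR adjusted p = 0.00183). Without NCD replicate 2 the value was -1.38 and the adjusted p 0.0532. Nr4a1 had 1012, 2064 and 1409 CPM with HFD, against 3326 and 2888 CPM with NCD, at -1.17 ± 0.30 (edgeR adjusted p = 0.0202). Its groups did not overlap either, but its call was lost in 4 of the 5 fits without a library: without NCD replicate 2 (-1.08, adjusted p = 0.144), NCD replicate 3 (-1.27, adjusted p = 0.0778), HFD replicate 1 (-0.96, adjusted p = 0.0781) or HFD replicate 3 (-1.13, adjusted p = 0.0685).

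The other members at week 16 did not pass. Nr4a3 had 122, 262 and 148 CPM with HFD and 240 and 239 CPM with NCD, with HFD replicate 2 above both NCD libraries. Its log2 fold change was -0.54 ± 0.25 (edgeR adjusted p = 0.202), -0.56 with no filter on low counts (adjusted p = 0.0260) and -0.96 without HFD replicate 2 (adjusted p = 0.00274), both past the threshold. Nr4a2 had 141, 262 and 130 CPM with HFD and 166 and 105 CPM with NCD (0.28 ± 0.53, edgeR adjusted p = 0.826). Of the 3 HFD libraries replicate 2 was the highest for all 3 Nr4a genes, for the 3 Egr genes and for Cd69. Egr2 had 11.3, 15.8 and 12.3 CPM with HFD and 10.2 CPM in both NCD libraries (0.25 ± 0.41, edgeR adjusted p = 0.792). Cd5 had 577, 557 and 532 CPM with HFD and 464 and 502 CPM with NCD (0.08 ± 0.12, edgeR adjusted p = 0.758). For Egr2 and Cd5 too the groups did not overlap, with every HFD library above both NCD libraries. In groups this small, libraries that lie apart are thus no sign of a difference on their own. The share of all genes without overlap was not counted.

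**Figure D3:**
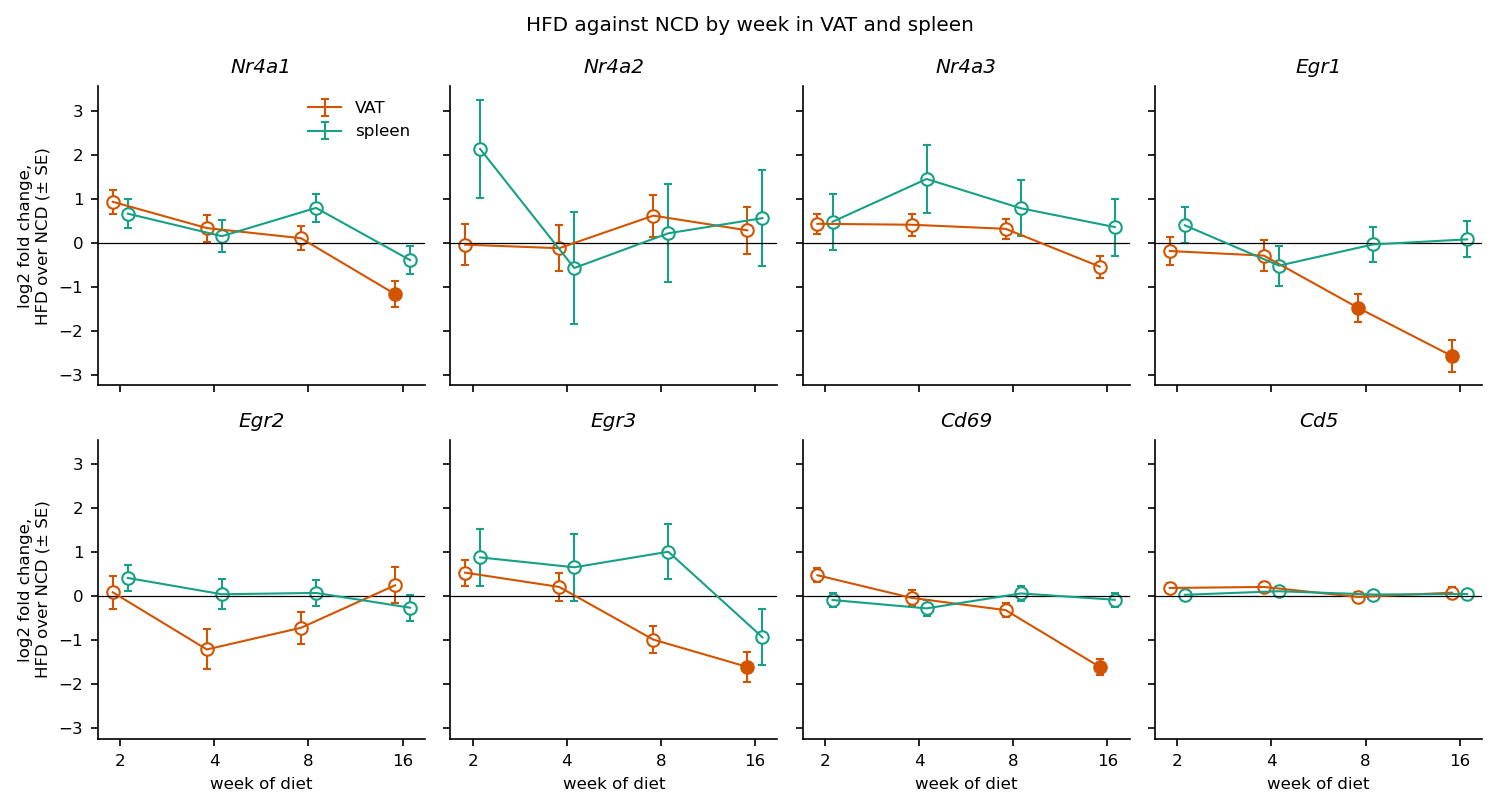
Log2 fold change of HFD over NCD (± SE) at each week in VAT (orange) and spleen (green), filled where called at an adjusted p under 0.05. In VAT Egr1 is called at -1.48 in week 8 and -2.58 in week 16, and Egr3, Cd69 and Nr4a1 at week 16, while the spleen points are all open.

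The mean over the 4 weeks called Egr1 (-1.14 ± 0.17, edgeR adjusted p = 0.000822) and Cd69 (-0.37 ± 0.09, adjusted p = 0.0147) lower with HFD, 2 of 8, where 4.2% of all genes were called. Neither call held without week 16. With that week left out of the mean, Egr1 was still lower at -0.65 but not called (edgeR adjusted p = 0.147), and Cd69 was at 0.04. The Cd69 call was also lost without HFD week 4 replicate 2 (-0.32, adjusted p = 0.0623).

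The difference between weeks was tested as such, as the effect of HFD at week 16 minus its mean at weeks 2, 4 and 8. It called 5 of 8, all lower at week 16, where 7.12% of all genes were called. The differences were -1.65 ± 0.20 for Cd69 (edgeR adjusted p = 3.95e-05), -1.92 ± 0.40 for Egr1 (adjusted p = 0.00625), -1.62 ± 0.35 for Nr4a1 (adjusted p = 0.00791) and -1.53 ± 0.38 for Egr3 (adjusted p = 0.0115). Nr4a3, at -0.93 ± 0.28 (edgeR adjusted p = 0.0499), was at the threshold and missed it in 16 of 22 fits that left out 1 library, with RLE normalization (-0.92, adjusted p = 0.0546) and in the fit of the compared groups alone (-0.93, adjusted p = 0.0733). Without NCD week 16 replicate 2 the calls of Nr4a1 (-1.54, adjusted p = 0.0590) and Egr3 (-1.31, adjusted p = 0.122) were lost as well.

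Week 0 sets both diets against the start, at which Egr1 had 150, 124 and 148 CPM and Cd69 had 1564, 1360 and 1459 CPM. HFD week 16 against week 0 called 4 of 8 lower, where 5.13% of all genes were called. These were Cd69 (-0.79 ± 0.16, edgeR adjusted p = 0.00491), Egr3 (-1.18 ± 0.31, adjusted p = 0.0221), Nr4a1 (-1.13 ± 0.28, adjusted p = 0.0239) and Egr1 (-1.31 ± 0.33, adjusted p = 0.0249). The count fell to 1 without week 0 replicate 3, HFD replicate 1 or HFD replicate 3, and to 2 without week 0 replicate 1. NCD week 16 against week 0 called 1 of 8, where 0.713% of all genes were called: Cd69 was higher (0.82 ± 0.18, edgeR adjusted p = 0.0272), a call lost in all 5 fits that left out 1 library, with adjusted p of 0.0696 to 0.264. Egr1 in NCD libraries was also above week 0, by 1.26 ± 0.35 (edgeR adjusted p = 0.102), and passed by DESeq2 (adjusted p = 0.0323) and limma voom (adjusted p = 0.00134). The 2 comparisons share the week 0 libraries, and at week 16 Egr1 and Cd69 lay below their week 0 libraries with HFD and above them with NCD.

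Beside the week 16 result stand other values that moved with it, in a comparison where 9.24% of all genes were called. Of the 22 other immediate early genes 15 were lower with HFD at week 16 and 0 higher, led by Ier3 (-3.40 ± 0.42, edgeR adjusted p = 3.81e-05), Zfp36 (-1.70 ± 0.23, adjusted p = 4.08e-05) and Fosb (-2.71 ± 0.35, adjusted p = 8.19e-05). Their summed level was 14316 to 28387 CPM with HFD, against 40993 to 41353 CPM with NCD, the highest NCD values of any week. None of the 10 heat shock genes was called, and their sums were 4572 to 4954 CPM with HFD and 4461 to 4838 CPM with NCD. The 6 markers of VAT Tregs summed to 3117 to 4984 CPM with HFD, against 7672 to 8432 CPM with NCD, and Pparg was lower (-1.86 ± 0.35, edgeR adjusted p = 0.00136). Sums of other cell types were higher with HFD than with NCD for the B cell markers (12.9 to 24.6 against 2.42 to 5.00 CPM), the endothelial (76.2 to 144 against 31.6 to 35.2 CPM), the dendritic cell (21.2 to 29.0 against 11.6 to 11.9 CPM), the macrophage (2.83 to 7.81 against 1.40 to 2.59 CPM) and the erythroid ones (4.50 to 9.36 against 3.11 to 3.60 CPM). They overlapped for the NK and CD8 cell (49.0 to 151 against 98.2 to 118 CPM) and the stromal markers (0.883 to 2.57 against 2.42 to 4.00 CPM), were lower for the adipocyte ones (0 to 0.685 against 3.80 to 5.01 CPM) and were 0 in all 5 libraries for the granulocyte ones. Of the markers tested at week 16, those called higher with HFD were 1 of 3 for B cells, 1 of 2 for dendritic cells, 1 of 5 for NK and CD8 cells and 1 of 1 for endothelial cells (log2 fold change 1.72). Those called lower were 1 of 2 for dendritic cells and 1 of 1 for adipocytes (-4.49). None of 3 macrophage, 1 stromal and 1 erythroid markers was called. Of the listed markers Pax5 and Blnk (B cell), C1qa and Fcgr1 (macrophage), Itgax (dendritic cell) and Cd8a (CD8 cell) were at 0 in all HFD week 16 libraries. So were Adipoq and Lep (adipocyte) and Cdh5 and Kdr (endothelial). The sums above came from other genes of the same lists, which are not named here. The part of handling and of the makeup of the sorted cells in the week 16 result was not tested.

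**Figure D4:**
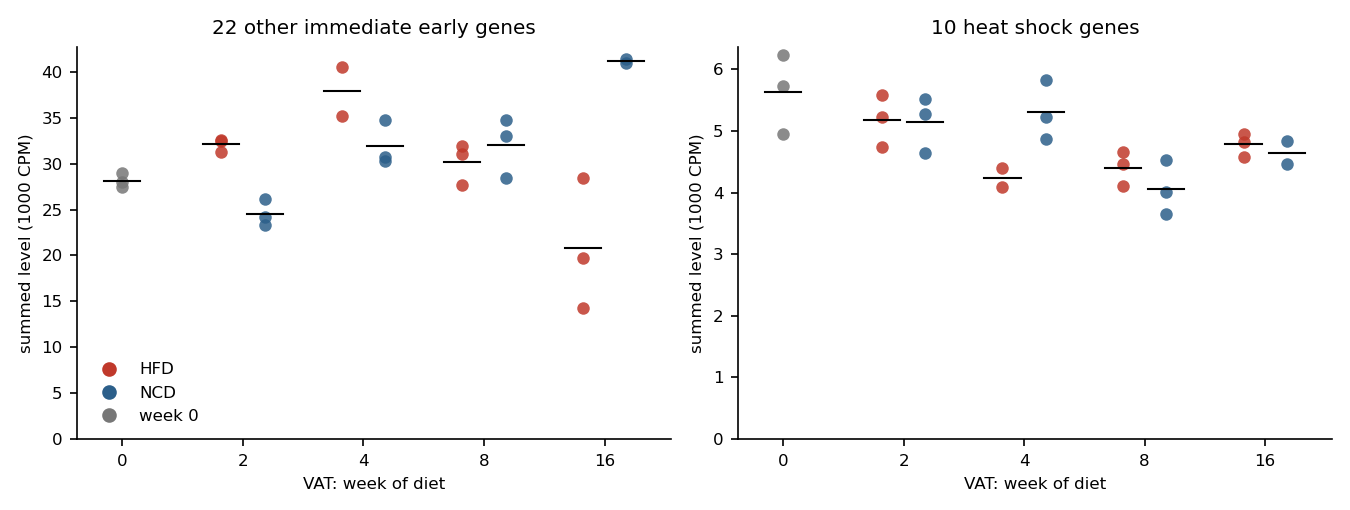
Summed level of 22 other immediate early genes (left) and 10 heat shock genes (right) in each VAT library by week, in units of 1000 CPM, HFD (red) left of NCD (blue), week 0 in grey, with group means as bars. At week 16 the immediate early sums lie at 14316 to 28387 CPM with HFD and 40993 to 41353 CPM with NCD, while the heat shock sums overlap.

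Other genes of the receptor pathway were called in both directions at week 16, where 9.24% of all genes were called. Of 18 genes of the receptor complex and proximal signalling 5 were higher with HFD and 1 lower, and among the higher were the kinases Lck (0.43 ± 0.10, edgeR adjusted p = 0.00703) and Fyn (0.51 ± 0.13, adjusted p = 0.0135). Of 20 feedback genes 4 were higher and 1 lower, namely Ubash3b (-1.19 ± 0.19, edgeR adjusted p = 0.000170), a phosphatase that dampens the receptor. Of 20 genes induced later 6 were higher and 3 lower, and the lower ones were Irf4 (-1.74 ± 0.22, edgeR adjusted p = 1.59e-05), Il2ra (-1.09 ± 0.16, adjusted p = 7.50e-05) and Ctla4 (-0.56 ± 0.10, adjusted p = 0.000519). At week 8, where Egr1 alone of the 8 and 1.33% of all genes were called, 6 of the 20 later genes were higher with HFD and 0 lower, with Tnfrsf9 at 1.25 ± 0.15 (edgeR adjusted p = 0.000143) and Pdcd1 at 1.05 ± 0.15 (adjusted p = 0.000588).

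In spleen edgeR called none of the 8 genes in any of 8 comparisons, and neither did DESeq2 or limma voom. For HFD against NCD, 0.0272% of the 14686 genes tested were called at week 2, 1.24% at week 4, 0% at weeks 8 and 16, and 0.933% in the mean of the weeks. The number of members at an unadjusted p under 0.05 was 0, 0, 1, 0 and 1 in these 5. Over all genes 716 at week 8 and 975 at week 16 had an unadjusted p under 0.05, and DESeq2 called 1 and 21 of all genes there and limma voom 0 and 0. Nr4a1 at week 8 had 129, 123 and 112 CPM with HFD, against 87.3, 64.8 and 63.3 CPM with NCD (0.79 ± 0.32, edgeR adjusted p = 0.915). Egr3 at week 16 had 5.55, 7.83 and 6.46 CPM with HFD, against 12.9, 14.5 and 10.5 CPM with NCD (-0.93 ± 0.64, edgeR adjusted p = 0.853). Week 16 minus the earlier weeks called 0 of 8, with 2 at an unadjusted p under 0.05, and 0% of all genes; over all genes 822 had an unadjusted p under 0.05, with 20 called by DESeq2 and 0 by limma voom. Against week 0 edgeR called 0 of 8 at HFD week 16 and 0 of 8 at NCD week 16, with 2 and 1 at an unadjusted p under 0.05, where 1.44% and 0.654% of all genes were called.

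At spleen levels Cd69 and Cd5 were measured closely and the Nr4a2, Nr4a3 and Egr3 values were not. Cd69 ran from 177 to 345 CPM and Cd5 from 506 to 714 CPM over the 26 libraries. Nr4a2 was at 0 in 3 spleen libraries and at or under 3 counts in 7, so diet differences in it were not detectable at this depth unless large.

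The diet effect in VAT minus that in spleen was tested in 1 fit of all 51 libraries. At week 16 it called Egr1 (-2.69 ± 0.58, edgeR adjusted p = 0.00389) and Cd69 (-1.56 ± 0.26, adjusted p = 0.000123), 2 of 8, where 4.46% of all genes were called, and both calls held in all 11 fits that left out 1 library. Egr1 in spleen at week 16 had 42.0, 31.8 and 52.9 CPM with HFD and 42.2, 20.0 and 58.2 CPM with NCD, which overlap. Cd69 in spleen had 177, 281 and 312 CPM with HFD and 273, 282 and 255 CPM with NCD. Nr4a1 (-0.80 ± 0.48, edgeR adjusted p = 0.424) and Egr3 (-0.71 ± 0.75, adjusted p = 0.715) did not pass. Nr4a1 passed when no filter on low counts was used (edgeR adjusted p = 3.59e-05). Its value was then -0.77, so that call turned on the setting and not on a larger difference. In the mean of the 4 weeks only Egr1 passed (-1.13 ± 0.29, edgeR adjusted p = 0.0275), where 2.44% of all genes were called. That call was lost without VAT NCD week 16 replicate 2 (-1.10, adjusted p = 0.0539), VAT HFD week 4 replicate 2 (-1.05, adjusted p = 0.0692) or spleen NCD week 4 replicate 2 (-1.15, adjusted p = 0.0544), and with week 16 left out (-0.60, adjusted p = 0.480). Cd69 in that mean was at -0.29 ± 0.13 (edgeR adjusted p = 0.273).

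Across the 25 VAT libraries some of the 8 genes ran together and others did not. Spearman's rho of the log2 CPM was 0.81 for Nr4a1 with Nr4a3 and 0.81 for Egr1 with Cd69, 0.77 for Egr3 with Cd69 and 0.20 for Nr4a1 with Egr1. With each group's mean taken out, the same pairs had 0.81, 0.63, 0.64 and 0.22. Egr2 had a rho of 0.06 with Egr1 and -0.01 with Egr3 over the libraries, and 0.18 and 0.58 with the group means taken out. These are descriptions across libraries that share groups and normalization, with no test.

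The genes whose levels ran most like each member over the VAT libraries, by Spearman's rho among 8583 genes, differed between members. For Nr4a1 they were Dot1l (0.93), Nfkbiz (0.93) and Slc66a2 (0.92), for Nr4a2 Tfip11 (0.85), Dusp4 (0.85) and Hspa2 (0.83), and for Nr4a3 Dennd4a (0.83), Snhg15 (0.81) and Nup98 (0.80). For Egr1 they were Fos (0.91), Plec (0.87) and Anxa1 (0.87), and for Cd69 Anxa1 (0.92), Fosb (0.91) and Btg2 (0.88), so Anxa1 stood in both. Egr3 had Pacs1 (0.82), Mfge8 (0.81) and Selplg (0.81). The highest values were lower for Egr2, with Shld1 at 0.72, and for Cd5, with Tnfaip8l1 at 0.75. Over the 26 spleen libraries the highest values for the 8 genes ran from 0.65 for Egr3 (Xlr4a) to 0.74 for Nr4a3 (Fut7). All these values are the highest of many candidate genes over few libraries. How high unrelated genes would reach was not tested.

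In the cultures Cd69 was higher and Egr1 lower with IFNα than without it, 2 of the 6 members that passed the filter on low counts, where 21.7% of all 12604 genes tested were called. Cd69 had 381 and 380 CPM with IFNα, against 280, 293 and 307 CPM in control cultures. The groups lay apart, at a log2 fold change of 0.42 ± 0.08 (edgeR adjusted p = 0.000549). Egr1 had 4.07 and 4.15 CPM with IFNα, against 6.94, 14.5 and 13.2 CPM in control cultures, at -1.45 ± 0.33 (edgeR adjusted p = 0.00315). The levels of Egr1 in both kinds of culture were below every VAT and every spleen library. Foxp3, used to check the labels, was also lower with IFNα (-1.11 ± 0.07, edgeR adjusted p = 2.82e-10).

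The other members in culture did not pass. Nr4a1 had 103 and 118 CPM with IFNα and 66.2, 92.4 and 149 CPM in control cultures, which span the treated ones (0.15 ± 0.42, edgeR adjusted p = 0.859). Without control replicate 3, the highest, its value was 0.51 (adjusted p = 0.0414). Nr4a3 had 4.99 and 4.67 CPM with IFNα and 2.11, 7.30 and 19.6 CPM in control cultures (-0.95 ± 1.06, edgeR adjusted p = 0.623), and without control replicate 1, the lowest, -1.42 (adjusted p = 0.0303). Control replicate 3 was the highest of the 3 for all of Nr4a1, Nr4a2, Nr4a3, Egr2 and Egr3. Cd5 had 436 and 435 CPM with IFNα and 408, 405 and 371 CPM in control cultures (0.18 ± 0.08, edgeR adjusted p = 0.104). Egr2 had 4.07 and 1.30 CPM with IFNα and 1.51, 2.85 and 6.69 CPM in control cultures. Nr4a2, with 0 and 1.30 CPM under IFNα and 0, 0.799 and 2.89 CPM in control cultures, and Egr3, with 0.370 and 0 CPM under IFNα and 0, 1.48 and 1.52 CPM in control cultures, were too low to test.

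Cultured and freshly sorted VAT Tregs came from different mouse lines and were not compared by a test. Side by side, Nr4a1 ran from 66.2 to 149 CPM over the 5 cultures, 1012 to 4173 CPM over the 25 VAT libraries and 37.8 to 153 CPM over the 26 spleen libraries. The summed level of the 22 other immediate early genes was 2350 to 2842 CPM in culture, beside a spleen range of 1938 to 2777 CPM, while the 10 heat shock genes summed to 6631 to 7390 CPM in culture, above every VAT and spleen library. Of the later receptor-induced genes 13 of 20 were higher with IFNα and 3 lower, where 21.7% of all genes were called, with Cd83 at 1.98 ± 0.17 (edgeR adjusted p = 1.65e-08) and Id3 at -2.16 ± 0.14 (adjusted p = 2.13e-10). Of the other immediate early genes 7 of 19 tested were higher and 1 lower, with Atf3 at 2.27 ± 0.39 (edgeR adjusted p = 0.000228).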

How the data were processed

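RNA was taken up on beads from 1000 sorted cells, poly(A) RNA was copied into cDNA and amplified, and Tn5 libraries of 18 PCR cycles were read as pairs of 38 bases, per the labels' protocols. The authors deposited unnormalized counts, 1 row per gene symbol, made with STAR 2.7.3a and featureCounts on mm10 per the submitters' processing notes. For the annotation release, the strand setting and multi-mapping reads, nothing is stated in the sources used here. No molecular identifiers are named, so limits of detection cover counting error only. Of 55011 symbols 53009 (96.4%) matched GENCODE M21, which gave positions and exon lengths.

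Titles gave each library's group and replicate number. Counts were tested by the robust quasi-likelihood test of edgeR 4.0.16 under R 4.3.3, after TMM normalization and the filterByExpr filter, in fits of the 25 VAT, 26 spleen, all 51 mouse and 5 culture libraries, with 14164, 14686, 15601 and 12604 genes. Tests were two-sided, and calls needed an adjusted p (Benjamini-Hochberg, over the genes of 1 comparison) under 0.05. CPM in the text is per total count, without TMM. Whether the libraries of compared groups overlapped was looked up for the members only, and the share over all genes was not counted. SE is the log2 fold change divided by the square root of F. Alternatives were RLE normalization, no filter on low counts, DESeq2 1.42.0, limma voom with sample weights (limma 3.58.1), a replicate block, only the groups compared, and leaving out each library. The block was the replicate number, shared over weeks and diets, in the VAT, spleen and culture fits. In the fit of all 51 mouse libraries it joined VAT and spleen libraries of the same week, diet and replicate number. The mean without week 16 was added after seeing the data. A group left with 1 library took its spread from the rest. The tests were checked on simulated counts.

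Named beyond the 8 genes were at most the 3 called genes with the smallest p of each pathway list, the 3 genes most like each member (mean log2 CPM of at least 3; predicted genes, pseudogenes and receptor segments left out), and Foxp3 and Pparg as checks. Some genes that this rule names are not reported here. The members and lists were chosen with earlier results of these data known.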

Additional observations from a re-analysis of the deposited data

Results flagged for a closer look

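The 8 differences between effects that passed a test of the difference itself were these. In VAT the effect of HFD at week 16 differed from its mean at weeks 2, 4 and 8 by -1.92 for Egr1, -1.65 for Cd69, -1.62 for Nr4a1, -1.53 for Egr3 and -0.93 for Nr4a3 on the log2 scale, by edgeR's quasi-likelihood test. The call of Nr4a3 (adjusted p = 0.0499) was at the threshold and was lost in 16 of 22 fits that left out 1 library. Between tissues, the effect of HFD in VAT minus that in spleen was -2.69 for Egr1 and -1.56 for Cd69 at week 16, and -1.13 for Egr1 in the mean of the 4 weeks. Groups of 2 or 3 libraries are too small for a search for single outlying libraries. The values that moved with these results, the summed immediate early genes and the VAT Treg markers, stand in the report, and their part was not tested.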

How the results depend on the processing

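The count of members called by edgeR changed by over 1.5 times in these cases. For VAT HFD against NCD it was 1 at week 2 with no filter and with limma voom, against 0. At week 8 it was 2 with DESeq2, against 1, and 0 to 1 with 1 library left out. At week 16 it was 2 to 5 with 1 library left out, against 4. In the mean it was 1 to 3 with 1 library left out and 0 with week 16 left out, against 2. For week 16 minus the earlier weeks it was 2 to 5 with 1 library left out, against 5. NCD week 16 against week 0 gave 2 with DESeq2 and with limma voom, 3 when fitted on the compared groups alone and 0 in every fit that left out 1 library, against 1. HFD week 16 against week 0 gave 1 to 5 with 1 library left out, against 4. The diet effect in VAT minus spleen, in the mean, gave 4 with no filter, 0 with week 16 left out and 0 to 2 with 1 library left out, against 1. The cultures gave 2 to 4 with 1 library left out, against 2. The other 12 comparisons stayed within 1.5 times.

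These signs turned. Nr4a2 at VAT week 16 ran from -0.12 (without HFD replicate 2) to 0.62 over the fits without a library, and was -0.0087 without NCD replicate 3. Cd5 in VAT against spleen without HFD ran from -0.0039 (without VAT NCD week 2 replicate 3) to 0.052. In culture Nr4a1 ran from -0.090 (without control replicate 1) to 0.51, and Nr4a3 from -1.42 to 0.025 (without control replicate 3). With week 16 left out, Cd69 was at 0.044 in the VAT mean and 0.13 in VAT minus spleen. The cause was not tested. Over all groups the replicate numbers were not taken as pairs: 3 of 21 diet pairs and 3 of 24 tissue pairs had deviations that correlated over 0.1, and own numbers correlated best in 10 and 11. The 3 tissue pairs were those of HFD week 16 (0.370, 0.134 and 0.287), where every number correlated best with its own. In culture the 2 pairs had 0.0418 and 0.0710, each best with its own number. In the fit of both tissues the block joined VAT and spleen libraries of the same week, diet and replicate number. With it, VAT minus spleen in the mean called 0 members (Egr1 -1.09), and at week 16 it still called Egr1 and Cd69. In the other fits the block was the replicate number alone, shared over weeks and diets. With that, Nr4a3 lost its call in VAT week 16 minus earlier (-0.89, edgeR adjusted p = 0.0835). In culture Nr4a3 was then at 0.13 and Nr4a1 passed at 0.53 (edgeR adjusted p = 0.00509). Of the values of single members that were followed through these settings, 1084 kept direction and call, 60 lost the call, 13 gained it and 8 turned; members not followed singly also gained calls in the counts above.

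Over all genes the counts called, with their range over all these settings, were 8 for VAT week 2 (2 to 162), 3 for VAT week 4 (0 to 115), 189 for VAT week 8 (37 to 465), 1309 for VAT week 16 (643 to 1544), 595 for VAT mean (372 to 825), 1009 for VAT week 16 minus earlier (416 to 1258), 101 for VAT NCD week 16 against week 0 (1 to 830), 727 for VAT HFD week 16 against week 0 (360 to 1055), 4 for spleen week 2 (0 to 85), 182 for spleen week 4 (0 to 307), 0 for spleen week 8 (0 to 26), 0 for spleen week 16 (0 to 26), 137 for spleen mean (16 to 483), 0 for spleen week 16 minus earlier (0 to 52), 96 for spleen NCD week 16 against week 0 (7 to 273), 211 for spleen HFD week 16 against week 0 (7 to 505), 380 for VAT minus spleen in the mean (216 to 797), 696 for VAT minus spleen at week 16 (378 to 941). Depth limits Nr4a2 and Egr3 in culture and Nr4a2 and Nr4a3 in spleen.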
